A study of Mus musculus with 29 samples.

Results

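The 10 genes described here code for enzymes and a transporter of serine, glycine and folate metabolism and were chosen as a set linked to astrocytes: Phgdh, Psat1, Psph, Srr, Shmt1, Slc1a4, Gldc, Amt, Gcsh and Aldh1l1. They were taken by gene symbol, 1 row each, from the 36172 gene rows of a count table of 29 RNAseq libraries. The libraries came from brains of mice carrying the floxed NuTRAP allele that were given tamoxifen at about 3 months of age, which after Cre recombination labels ribosomes with EGFP-tagged L10a. Aldh1l1-Cre/Ert2+; NuTRAP+ mice (3 animals), in which the Aldh1l1 promoter drives Cre, gave a positive and a negative fraction. Cx3cr1-Cre/Ert2+; NuTRAP+ mice (6 animals), in which the Cx3cr1 promoter drives Cre in microglia, gave input, positive and negative fractions, and 5 of them whole tissue. The positive fraction is RNA pulled down on tagged ribosomes from a half-brain homogenate, the negative fraction is the unbound RNA of that homogenate, the input is cleared homogenate before the pulldown, and whole tissue is RNA isolated from brain in the conventional way. All mice carried Cre and NuTRAP and had received tamoxifen, so no group lacked either. Values for a tissue input of the Aldh1l1-NuTRAP mice were not used here. The sex of each animal is not in the labels.

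Serine is made from the glycolytic intermediate 3-phosphoglycerate by 3 enzymes acting in sequence, PHGDH, PSAT1 and PSPH. It is turned into glycine by serine hydroxymethyltransferases, which pass a carbon unit to folate, or into D-serine, a co-agonist of the NMDA receptor, by serine racemase. Glycine is broken down in mitochondria by the glycine cleavage system, which also feeds carbon units to folate, and ALDH1L1 oxidises 10-formyltetrahydrofolate in the cytosol. In the brain, serine synthesis and glycine cleavage are known as activities of astrocytes, which supply serine to neurons.

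Total counts were 8782235 to 25137834 per library in the Aldh1l1-NuTRAP fractions and 15486605 to 26857866 in the Cx3cr1-NuTRAP libraries, apart from the whole tissue of mouse 210 with 4260949. The summed level of 10 astrocyte markers was 18075 to 27441 CPM (counts scaled to the same total in every library) in the Aldh1l1-NuTRAP positive fractions and 3473 to 4840 CPM in the negative fractions, and all 10 were detected in every library. The sum of 10 neuron markers was 2250 to 2763 CPM in these positive fractions against 10029 to 10270 CPM in the negative fractions, and that of 8 choroid plexus markers was 2956 to 3400 CPM against 499 to 650 CPM. Ependymal markers (5 genes) summed to 58.5 to 92.2 CPM against 23.1 to 37.4 CPM. The part of choroid plexus and ependymal cells in the levels of the 10 genes was not tested. Microglia markers (10 genes) summed to 3338 to 7994 CPM in the Cx3cr1-NuTRAP positive fractions and 403 to 444 CPM in the inputs. Genes whose longest transcript is under 1500 bases took 14.0% of the counts in the negative fraction of mouse 290 and 20.9% in its positive fraction. In mice 293 and 294 these shares were 9.71% and 9.23%, and 11.7% and 12.5%. The negative fraction of Cx3cr1-NuTRAP mouse 155 stood at 14.0%, where the other 5 lay between 9.54% and 10.5%. These libraries are named again where a result rests on them.

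The first comparison asked which transcripts were enriched in the pulldown aimed at astrocytes. In the Aldh1l1-NuTRAP mice, 8 of the 10 genes were higher in the positive than in the negative fraction and 0 were lower (edgeR quasi-likelihood test, adjusted p under 0.05), where 51.6% of the 13319 tested genes passed, 26.8% as higher and 24.8% as lower. The 8 genes were Aldh1l1, Gldc, Phgdh, Gcsh, Psph, Psat1, Slc1a4 and Amt, from 9.59-fold for Aldh1l1 to 3.52-fold for Amt. The exceptions were Srr and Shmt1. Over the 10 genes the median log2 fold change was 2.24, beside 0.04 over all tested genes. In such bulk fractions, a lower share of a cell type's RNA and less RNA per cell cannot be told apart. Without scaling factors, on library totals alone, the median of all genes was -0.31 and 2438 genes were higher and 4812 lower, against 3569 and 3299 with TMM scaling. The same 8 of the 10 genes passed under both.

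The 3 enzymes of serine synthesis were all higher in the positive fraction. Phgdh (Entrez 236539, mm10 chr3:98313171-98339969), which codes for the dehydrogenase of the initial step, had 572 CPM in mouse 290, 389.8 CPM in mouse 293 and 389 CPM in mouse 294 in the positive fraction. In the negative fraction it had 125, 70.7 and 63.5 CPM in the same mice, so the groups lay apart and mouse 290 was the highest of both. Its log2 fold change was 2.73 (SE 0.33, edgeR adjusted p = 0.000528). Psat1 (Entrez 107272, chr19:15905123-15925059), the aminotransferase, had 284, 359.8 and 370.3 CPM in the positive fractions of mice 290, 293 and 294. Its negative fractions held 85.4, 109 and 109.5 CPM, and mouse 290 was here the lowest of both groups. The log2 fold change was 2.08 (SE 0.17, edgeR adjusted p = 0.000113), and the ratio within each mouse lay between 2.12 and 2.14 on the log2 scale. Psph (Entrez 100678, chr5:129765558-129787253), the phosphatase of the last step, had 75.2, 47.5 and 51.1 CPM in the positive fractions of the 3 mice and 15.4, 12.1 and 14.5 CPM in the negative fractions. The groups did not overlap, and the log2 fold change was 2.40 (SE 0.24, edgeR adjusted p = 0.00024).

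Srr (Entrez 27364, chr11:74906359-74925798), which codes for serine racemase, differed less between fractions. It had 47.0, 89.7 and 73.5 CPM in the positive fractions of mice 290, 293 and 294, and 33.3, 59.4 and 63.5 CPM in the negative fractions. The groups overlapped in the positive fraction of mouse 290, which lay below the negative fractions of the other mice, while the positive fraction was higher within each of the 3 mice. The log2 fold change was 0.77 (SE 0.30) and did not pass the test (edgeR adjusted p = 0.065). With the mouse as a block it was 0.78 with an adjusted p of 0.000157, and without mouse 290 it was 0.72 with an adjusted p of 0.000273. Both libraries of mouse 290 had high shares of counts in short-transcript genes, as given above, and the part of this in the value was not tested. Srr overlaps Tsr1 and Smg6 on the opposite strand in the GENCODE annotation. The authors aligned reads of strand-specific libraries.

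Shmt1 (Entrez 20425, chr11:60788897-60811265), the cytosolic serine hydroxymethyltransferase, was at a low level in every group. It had 0.336, 0.577 and 1.72 CPM in the positive fractions of mice 290, 293 and 294, from 4, 12 and 38 counts, and 2.38, 1.32 and 1.96 CPM in the negative fractions. Its log2 fold change was -0.68 (SE 0.58, edgeR adjusted p = 0.358), and it entered the test through the counts of the negative fractions. Its mitochondrial counterpart Shmt2 had 39.0 to 45.5 CPM in the positive fractions and 22.1 to 24.8 CPM in the negative fractions. That difference passed the test, with a log2 fold change of 1.21 (SE 0.15, edgeR adjusted p = 0.000555).

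Slc1a4 (Entrez 55963, chr11:20302180-20332713) codes for ASCT1, a neutral amino acid exchanger that carries serine. It had 138, 192 and 163 CPM in the positive fractions of mice 290, 293 and 294, and 49.5, 69.0 and 56.8 CPM in the negative fractions. Each positive fraction was above each negative fraction, and the ratio was nearly the same in the 3 mice, at 1.87 to 1.90 on the log2 scale. The fitted log2 fold change was 1.84 (SE 0.19, edgeR adjusted p = 0.000276).

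Of the glycine cleavage system, all 3 genes chosen here were higher in the positive fraction. Gldc (Entrez 104174, chr19:30098441-30175441), the decarboxylase, had 144, 177 and 164 CPM in the positive fractions of mice 290, 293 and 294. Its negative fractions held 21.7, 24.2 and 21.3 CPM, a small spread, and the log2 fold change was 3.19 (SE 0.16, edgeR adjusted p = 3.37e-05). Gcsh (Entrez 68133, chr8:116981828-116993449), the lipoic acid-carrying H protein, had 283, 215 and 204 CPM in the positive fractions and 64.3, 50.6 and 53.1 CPM in the negative fractions. As with Phgdh, mouse 290 was the highest of both groups, and the log2 fold change was 2.41 (SE 0.21, edgeR adjusted p = 0.00014). The longest Gcsh transcript has 1443 bases, so Gcsh is itself a short-transcript gene, and the share of counts in that class was higher in the positive than in the negative fraction of mice 290 (20.9% against 14.0%), 293 (11.7% against 9.71%) and 294 (12.5% against 9.23%). Its part in the value was not tested. Amt (Entrez 434437, chr9:108296922-108301597), the aminomethyltransferase that hands the carbon unit to folate, had 41.5, 65.6 and 71.1 CPM in the positive fractions and 22.5, 22.4 and 19.3 CPM in the negative fractions. The groups lay apart, with mouse 290 the lowest of the positive fractions, and the log2 fold change was 1.82 (SE 0.22, edgeR adjusted p = 0.000541). Dld, the dehydrogenase that the glycine cleavage system shares with other mitochondrial complexes, had 113 to 161 CPM in the positive and 111 to 159 CPM in the negative fractions. Its log2 fold change of 0.39 (SE 0.23) did not pass the test (edgeR adjusted p = 0.18).

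Aldh1l1 (Entrez 107747, chr6:90550848-90599171) is also the gene whose promoter drives Cre in this line. It had 499, 579 and 542 CPM in the positive fractions of mice 290, 293 and 294, and 86.8, 62.5 and 65.0 CPM in the negative fractions. It had the largest fold change of the 10 genes, 3.26 on the log2 scale (SE 0.20, edgeR adjusted p = 5e-05), and ranked 140 from the top among all tested genes. Its mitochondrial counterpart Aldh1l2 was low in both fractions, with 1.07 to 4.67 CPM in the positive and 2.62 to 5.64 CPM in the negative fractions, and the log2 fold change was -0.03 (SE 0.51, edgeR adjusted p = 0.964). The next 3 genes by fold change ranked 168 (Gldc), 373 (Phgdh) and 587 (Gcsh).

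**Figure D1:**
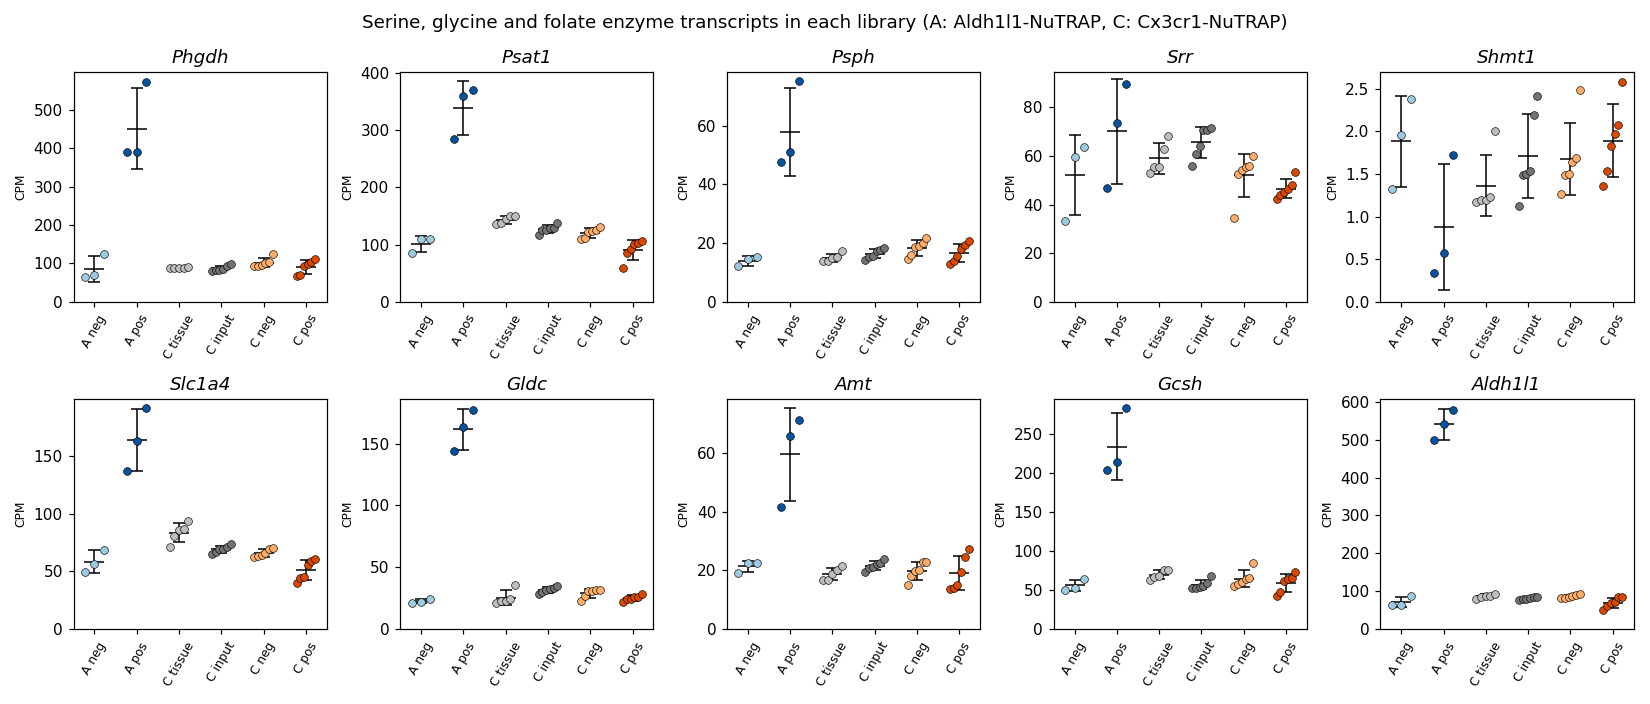
CPM of the 10 genes in each of the 29 libraries, 1 panel per gene with its own linear axis from 0, with A for Aldh1l1-NuTRAP, C for Cx3cr1-NuTRAP, 1 point per library, and bars for the mean ± SD. For 8 genes the 3 Aldh1l1-NuTRAP positive fractions lie above all other libraries, while Srr overlaps and Shmt1 stays under 2.6 CPM throughout.

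Levels between genes were compared per kb of merged exons. In the Aldh1l1-NuTRAP positive fraction Phgdh had the highest level, with 238 ± 55.8 CPM per kb (SD, n = 3), followed by Gcsh with 162 ± 29.6, Aldh1l1 with 129 ± 9.67 and Psat1 with 115 ± 16.0. Of these neighbours, the library ranges of Phgdh and Gcsh and of Gcsh and Aldh1l1 did not overlap, while those of Aldh1l1 and Psat1 did. The lowest Gcsh library (142 CPM per kb) lay close to the highest Aldh1l1 library (139). Aldh1l1 was divided by 4175 bases of merged exons, while its shortest transcript has 3052. The order of this pair depends on the length used and is not read as a difference. A group of 4 genes with overlapping neighbours came next, with 42.9 ± 4.37 CPM per kb for Gldc, 41.8 ± 6.93 for Slc1a4, 33.4 ± 8.68 for Psph and 28.5 ± 7.56 for Amt. Srr had 18.2 ± 5.60 CPM per kb, in a range that overlapped with that of Amt, and Shmt1 had 0.307 ± 0.259.

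The order in the Aldh1l1-NuTRAP negative fraction was not the same. Psat1 stood above Aldh1l1 there, with 34.5 ± 4.69 against 17.1 ± 3.20 CPM per kb (SD, n = 3), and Gldc was the lowest gene apart from Shmt1, with 5.95 ± 0.419. In the Cx3cr1-NuTRAP input, Phgdh, Psat1 and Gcsh led with 46.1 ± 3.69, 43.4 ± 2.27 and 39.4 ± 4.05 CPM per kb (SD, n = 6), with overlapping neighbours, and Aldh1l1 had 19.5 ± 0.649. Within serine synthesis, Psph had the lowest level per kb of the 3 enzymes in all 6 groups. Within glycine cleavage, Gcsh was the highest of the 3 genes and Amt was above Gldc in 5 of the 6 groups, the Aldh1l1-NuTRAP positive fraction being the exception.

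**Figure D2:**
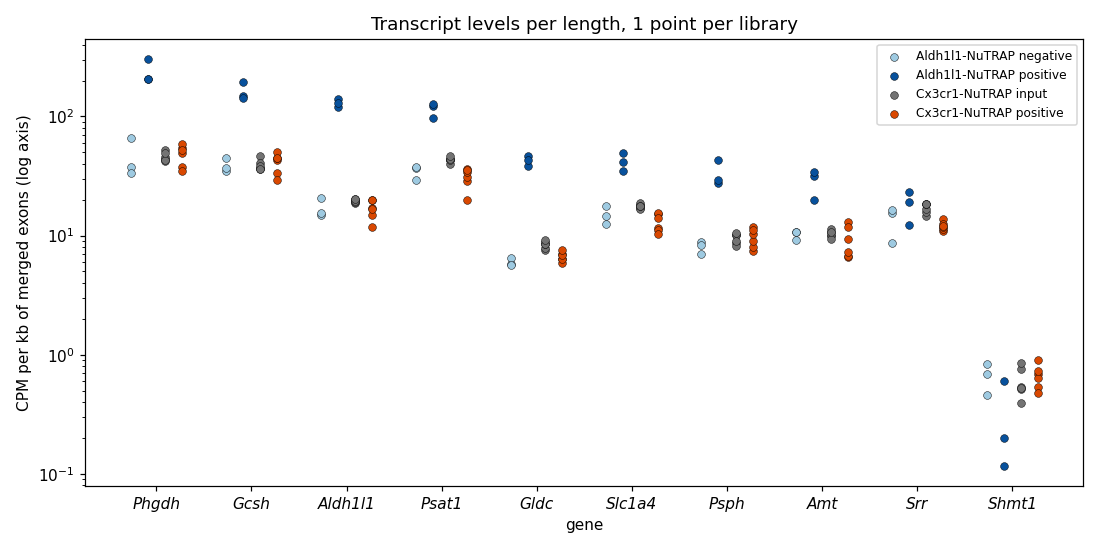
Level per kb of merged exons (CPM per kb, log axis) of the 10 genes in 4 groups, 1 point per library. In the Aldh1l1-NuTRAP positive fraction Phgdh leads at a mean of 238 and Gldc reaches 42.9, while Shmt1 lies under 1 in every group.

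The positive fractions of both lines, of which the Aldh1l1-NuTRAP libraries also served in the contrast above, were then compared, as the pulldown aimed at astrocytes against that aimed at microglia. The lines also differ in their Cre allele, and the paper delayed brain collection after tamoxifen in Cx3cr1-NuTRAP mice. Here and in the other tests between the lines, cell type cannot be told apart from line or time. The Cx3cr1-NuTRAP positive fractions also held RNA of other cells, with neuron markers (10 genes) at 6769 to 10515 CPM, against 2250 to 2763 CPM in the Aldh1l1-NuTRAP positive fractions and 9407 to 9868 CPM in the Cx3cr1-NuTRAP inputs. Their astrocyte markers summed to 3299 to 5038 CPM, against 5335 to 5739 CPM in the inputs, so the levels of the 10 genes in these libraries cannot be read as those of microglia, and the part of these cells in them was not tested. Choroid plexus markers (8 genes) summed to 2956 to 3400 CPM in the Aldh1l1-NuTRAP and 228 to 1057 CPM in the Cx3cr1-NuTRAP positive fractions. Ependymal markers (5 genes) summed to 58.5 to 92.2 against 16.3 to 33.8 CPM, and the part of both was not tested. Of the 10 genes, 9 were higher in the Aldh1l1-NuTRAP positive fraction and 0 were lower (edgeR adjusted p under 0.05), where 63.7% of the 13676 tested genes passed, 30.6% as higher and 33.1% as lower. The log2 fold changes ran from 0.90 for Srr (SE 0.16, edgeR adjusted p = 0.000597) to 3.26 for Aldh1l1 (SE 0.15, edgeR adjusted p = 2.49e-08). For Phgdh the 6 Cx3cr1-NuTRAP positive fractions had 66.3 to 112 CPM with a median of 96.1, all under the 389 CPM that was the lowest Aldh1l1-NuTRAP value, and the log2 fold change was 2.63 (SE 0.18). For Gldc they had 22.3 to 28.4 CPM with a median of 25.0, against 144 CPM or more, and the log2 fold change was 2.99 (SE 0.10). Amt had 13.7 to 27.3 CPM with a median of 17.2 in these 6 libraries and a log2 fold change of 1.94 (SE 0.26). Srr had 42.2 to 53.2 CPM with a median of 45.9, so that its lowest Aldh1l1-NuTRAP library, 47.0 CPM of mouse 290, lay within the Cx3cr1-NuTRAP range. Shmt1 had 1.36 to 2.58 CPM with a median of 1.90, and a log2 fold change of -0.74 (SE 0.42) that did not pass (edgeR adjusted p = 0.141). Without scaling factors the median of all genes moved to -0.39, the calls over all genes to 2880 higher and 6304 lower, and Shmt1 to -1.04 with an adjusted p of 0.0484. Without mouse 294, the Shmt1 value was -1.66 with an adjusted p of 0.00445, which rests on 4 and 12 counts in the Aldh1l1-NuTRAP positive fractions left. Shmt1 entered this test only through the Cx3cr1-NuTRAP positive fractions, where its mean was higher, so these calls of Shmt1 are not read as a difference.

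The unbound RNA of the lines served as the background of this contrast. Between the negative fractions, 0 of the 10 genes passed in either direction, where 0.25% of the 13613 tested genes passed, 0.125% in each direction (edgeR adjusted p under 0.05), and 3 of the 10 genes had an unadjusted p under 0.05, as did 1827 of the 13613 tested genes. These were Psph at -0.36 (SE 0.15), Psat1 at -0.22 (SE 0.09) and Gldc at -0.34 (SE 0.11) on the log2 scale, all lower in the Aldh1l1-NuTRAP line. DESeq2 also called 0 of the 10. Without mouse 290, Aldh1l1 was lower by an adjusted p of 0.0395, at -0.44. Choroid plexus markers (8 genes) summed to 499 to 650 CPM in the Aldh1l1-NuTRAP and 934 to 1412 CPM in the Cx3cr1-NuTRAP negative fractions. Oligodendrocyte markers (10 genes) summed to 6336 to 7635 against 5038 to 5574 CPM, and astrocyte markers (10 genes) to 3473 to 4840 against 4426 to 5632 CPM. The part of these cells in the values was not tested.

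Whether the enrichment itself was larger in either line was tested as an interaction. By this test 9 of the 10 genes had a larger ratio in the Aldh1l1-NuTRAP line and 0 a smaller ratio (edgeR adjusted p under 0.05), where 55.4% of the 13983 tested genes passed, 25.5% with a larger and 29.9% with a smaller ratio. This test and the contrasts above share the libraries of both lines. The difference was 3.51 for Aldh1l1 (SE 0.20), 3.33 for Gldc (SE 0.15), 2.84 for Phgdh (SE 0.30) and 2.42 for Psat1 (SE 0.20) on the log2 scale. Srr had the smallest called difference, 0.86 (SE 0.27, edgeR adjusted p = 0.0127), which was 0.59 with an adjusted p of 0.0849 on library totals. Without mouse 293 it was 0.74 with an adjusted p of 0.0513. Shmt1 had -0.89 (SE 0.51, edgeR adjusted p = 0.141), and -1.77 with an adjusted p of 0.0092 without mouse 294. It entered this test through the other groups and not through the Aldh1l1-NuTRAP positive fractions, which held 4 and 12 counts without mouse 294, so that call is not read as a difference.

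**Figure D3:**
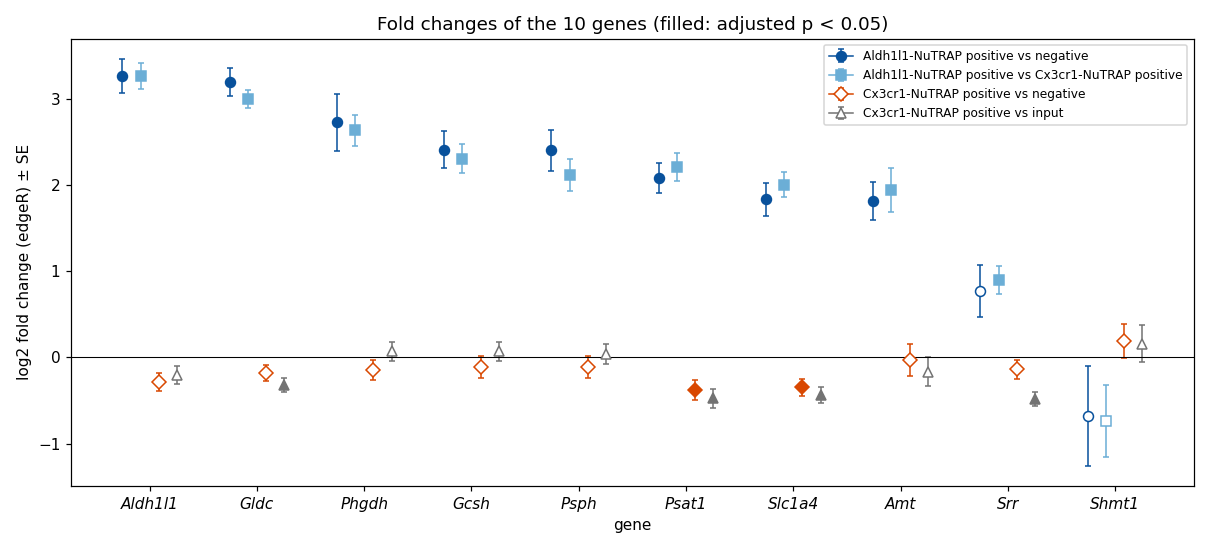
Log2 fold changes from edgeR (points) with SE (bars) of the 10 genes in 4 comparisons, with filled symbols for an adjusted p under 0.05. Both comparisons of the Aldh1l1-NuTRAP positive fraction lie between 1.8 and 3.3 for 8 genes, and those within the Cx3cr1-NuTRAP mice lie within 0.5 of 0.

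In the Cx3cr1-NuTRAP mice the positive fraction was compared with the input, to ask which transcripts were enriched or depleted in the pulldown aimed at microglia. As given above, that pulldown also held RNA of other cells. Against the input, 4 of the 10 genes passed and all 4 were reduced (edgeR adjusted p under 0.05), where 48.9% of the 13838 tested genes passed, 23.3% as higher and 25.6% as lower. Psat1 had 58.3 to 106 CPM with a median of 96.2 in the 6 positive fractions, and 117 to 137 CPM with a median of 127 in the inputs. The groups lay apart, and the log2 fold change was -0.48 (SE 0.11, edgeR adjusted p = 0.00308). Slc1a4 had 40.4 to 60.8 CPM with a median of 50.4 in the positive fractions and 65.4 to 73.7 CPM with a median of 69.4 in the inputs, and fell by 0.43 on the log2 scale (SE 0.09, edgeR adjusted p = 0.00163). Srr had a median of 45.9 CPM in the positive fractions and 67.3 CPM in the inputs, whose lowest library had 55.7 CPM, and fell by 0.48 on the log2 scale (SE 0.08, edgeR adjusted p = 0.000237). Gldc had 28.3 to 34.5 CPM with a median of 32.1 in the inputs, and its ranges met between the highest positive fraction (28.4 CPM) and the lowest input. It fell by 0.32 on the log2 scale (SE 0.08, edgeR adjusted p = 0.00356). Psat1, Srr, Slc1a4 and Gldc were lower in the positive fraction in 6 of 6 mice. Srr was also lower in the negative fraction than in the input in 6 of 6 mice, 1.26-fold, though not called in the unpaired fit. So was Psat1, 1.05-fold. Against the negative fraction, the positive fraction was 1.1-fold lower for Srr and 1.3-fold lower for Psat1.

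The other 6 genes did not pass in this comparison. Phgdh had 80.1 to 98.2 CPM with a median of 85.0 in the inputs, a range inside that of its positive fractions, and a log2 fold change of 0.07 (SE 0.11, edgeR adjusted p = 0.628). Gcsh had 0.07 (SE 0.11), Psph 0.04 (SE 0.12), Amt -0.17 (SE 0.17), Shmt1 0.16 (SE 0.22) and Aldh1l1 -0.20 (SE 0.10) on the log2 scale. Over the 10 genes the median was -0.19, beside 0.00 over all tested genes. The 10 astrocyte markers summed to 3299 to 5038 CPM in the positive fractions and 5335 to 5739 CPM in the inputs, all of them detected in every library. Oligodendrocyte markers (10 genes) summed to 1387 to 3698 against 4799 to 5524 CPM, and oligodendrocyte precursor markers (5 genes) to 61.9 to 91.0 against 135 to 152 CPM, while microglia markers were higher, as given above. Their part in these levels was not tested.

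Against the negative fraction of the same mice, 2 of the 10 genes were lower in the positive fraction and 0 were higher, where 24.3% of the 13776 tested genes passed, 11.6% as lower and 12.8% as higher (edgeR adjusted p under 0.05). This contrast shares its positive fractions with that against the input. They were Psat1, at -0.38 (SE 0.12, edgeR adjusted p = 0.0276), and Slc1a4, at -0.35 (SE 0.10, edgeR adjusted p = 0.0167), both lower in 6 of 6 mice. The negative fractions had 109 to 130 CPM of Psat1, with a median of 123, and 62.4 to 70.2 CPM of Slc1a4, with a median of 65.2, above every positive fraction. The calls were lost with some single mice left out, at fold changes close to those with all mice. Psat1 was at -0.36 without mouse 192 (adjusted p = 0.104), -0.40 without mouse 209 (0.0502) and -0.41 without mouse 277 (0.0533), and Slc1a4 at -0.30 without mouse 192 (0.0803) and -0.29 without mouse 194 (0.0569). Without mouse 155, 4 of the 10 passed, beside 4273 of 13904 tested genes, with Srr at -0.20 (adjusted p = 0.0334) and Gldc at -0.23 (adjusted p = 0.0484) added. Aldh1l1 was at -0.29 (SE 0.11, edgeR adjusted p = 0.0594), lower in 6 of 6 mice, and passed with DESeq2 (adjusted p = 0.0392). Oligodendrocyte markers (10 genes) summed to 1387 to 3698 CPM in the positive and 5038 to 5574 CPM in the negative fractions. Precursor markers (5 genes) summed to 61.9 to 91.0 against 110 to 137 CPM, and astrocyte markers (10 genes) to 3299 to 5038 against 4426 to 5632 CPM. Microglia markers (10 genes) were higher, at 3338 to 7994 against 389 to 474 CPM. Their part in these values was not tested.

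The unbound RNA of the Cx3cr1-NuTRAP mice was compared with the input, since the Aldh1l1-NuTRAP comparison used unbound RNA. The pulldown in these mice was aimed at microglia. It cannot show how far unbound RNA stands for the input after a pulldown aimed at astrocytes, so no conclusion on the Aldh1l1-NuTRAP folds is drawn. In the unpaired fit, 0 of the 10 genes passed, where 6.11% of the 13748 tested genes passed, 1.41% as higher and 4.7% as lower (edgeR adjusted p under 0.05), and 3 had an unadjusted p under 0.05, as did 4376 of the 13748 tested genes. With the mouse as a block, 5115 genes passed, 2431 higher and 2684 lower, and so did 3 of the 10. Phgdh was then higher in the negative fraction by 0.23 (edgeR adjusted p = 0.00132) and Gcsh by 0.19 (adjusted p = 0.00741), each in 6 of 6 mice, and Srr was lower by 0.34 in 6 of 6 mice (log2 fold change -0.34, adjusted p = 0.000516). Phgdh had 92.8 to 125 CPM with a median of 98.9 in the negative fractions, the 125 CPM being mouse 155. Without mouse 155 the unpaired fit, which then called 3815 of 13820 genes, also called these 3, with Phgdh at 0.20, Gcsh at 0.15 and Srr at -0.28.

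Between input and whole tissue, 1 of the 10 genes was higher in the input and 3 were lower, where 30.3% of the 13608 tested genes passed, 15.7% as higher and 14.6% as lower (edgeR adjusted p under 0.05). Gcsh was lower by 0.30 on the log2 scale (log2 fold change -0.30, SE 0.07, edgeR adjusted p = 0.00574), with 52.3 to 67.6 CPM in the inputs and 63.6 to 75.8 CPM in whole tissue. Slc1a4 had -0.29 (SE 0.07, edgeR adjusted p = 0.00543) and Psat1 -0.19 (SE 0.06, edgeR adjusted p = 0.0216). The call of Psat1 was lost without a filter on low counts (-0.16, adjusted p = 0.0906), with the mouse as a block (-0.185, 0.0907), and without mouse 192 (-0.158, 0.11), 194 (-0.158, 0.102) or 209 (-0.174, 0.0929). With all 6 groups in 1 fit Psat1 was at -0.20 (adjusted p = 0.159) and Gcsh at -0.32 (adjusted p = 0.0761). Gldc was higher in the input, at 0.36 (SE 0.11, edgeR adjusted p = 0.0291), although its highest library of both groups was a whole tissue, that of mouse 210 with 36.1 CPM from 154 counts. It was higher in the input in 4 of 5 mice. The call of Gldc was lost without mouse 192 (0.348, adjusted p = 0.0946), mouse 194 (0.334, 0.109), mouse 209 (0.307, 0.13) or mouse 277 (0.27, 0.146). Oligodendrocyte markers (10 genes) summed to 4799 to 5524 CPM in the inputs and 6649 to 9027 CPM in whole tissue, endothelial markers (8 genes) to 112 to 129 against 177 to 329 CPM, and ependymal markers (5 genes) to 23.5 to 35.0 against 39.0 to 68.2 CPM. Choroid plexus markers (8 genes) summed to 852 to 1022 CPM in the inputs and 211 to 1010 CPM, with a median of 404, in whole tissue. The part of these cells in the differences was not tested.

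A further 64 genes of the same pathways, grouped by role, were read from the fits beside the 10. Of these, 54 could be tested between the Aldh1l1-NuTRAP fractions, and 27 passed as higher and 10 as lower in the positive fraction (edgeR adjusted p under 0.05), with a median log2 fold change of 0.64. Over all tested genes these shares were 26.8% and 24.8% and the median was 0.04, and the same shares apply to the counts by role below, each over few genes. Among 8 tested genes of serine uptake and exchange, 3 were higher and 3 were lower. Slc7a10, the alanine-serine-cysteine exchanger Asc-1 that carries D-serine, had 312 to 406 CPM in the positive and 39.7 to 61.1 CPM in the negative fractions, a log2 fold change of 3.22 (SE 0.26). Slc38a3, a glutamine transporter, had 3.06 (SE 0.16), while the amino acid transporter Slc38a2 had -1.51 (SE 0.23) and the sideroflexin Sfxn2 -1.48 (SE 0.27), each with an adjusted p under 0.05 from edgeR. Of 13 tested genes that use or break down serine, 7 were higher and 3 were lower. Dao, D-amino acid oxidase, had 54.0 to 157 CPM in the positive and 5.95 to 17.2 CPM in the negative fractions, and a log2 fold change of 3.52 (SE 0.52, edgeR adjusted p = 0.00128). Cbs and Cth, the enzymes of transsulfuration, which uses serine to make cysteine, had 3.26 (SE 0.17) and 2.98 (SE 0.23) on the log2 scale, both called. Serinc5 was called lower, at -1.23 (SE 0.19).

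Of the 10 tested genes of glycine transport and breakdown, 6 were higher and 1 was lower. Slc6a9, the glycine transporter GlyT1, had 335 to 405 CPM in the positive and 77.2 to 93.3 CPM in the negative fractions, a log2 fold change of 2.46 (SE 0.15, edgeR adjusted p = 5.17e-05). Slc6a5, GlyT2 of glycinergic neurons, had 0.538 to 0.810 CPM in the positive and 2.73 to 3.92 CPM in the negative fractions, and was the 1 gene called lower. It had 9 to 17 counts in the positive fractions and entered the test only through the negative fractions, where it had 24 to 82, so this call is not read as a difference. Of 6 tested genes of folate uptake and retention, 4 were higher and 0 were lower. They included the folate receptor Folr1, which is also among the 8 choroid plexus markers and rose from 4.95 to 5.12 CPM in the negative fractions to 19.1 to 28.1 CPM in the positive fractions (log2 fold change 2.58, edgeR). The choroid plexus sum given above moved with it, and its part was not tested. Of 11 tested genes of folate interconversion, 6 were higher and 2 were lower, the latter including the mitochondrial Mthfd1l at -1.26 (SE 0.20). Of 6 tested genes of the methionine cycle, 1 was higher and 1 was lower, counts near the 26.8% and 24.8% of all tested genes. The former was Sardh, sarcosine dehydrogenase, with the largest fold change of the 54 tested genes, 3.66 (SE 0.19, edgeR adjusted p = 3.37e-05).

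In the positive fractions of both lines, 30 of 55 tested pathway genes were higher in the Aldh1l1-NuTRAP line and 15 were higher in the Cx3cr1-NuTRAP line (edgeR adjusted p under 0.05), where 30.6% and 33.1% of all tested genes passed in these directions. The latter included Serinc3, a membrane protein of the serine incorporator family, at -1.72 (SE 0.19). They also included Slc6a5 and Folr2, a folate receptor of macrophages, which entered this test only through the Cx3cr1-NuTRAP positive fractions, so these calls are not read as differences. Folr2 had 4.24 to 11.0 CPM in the 6 Cx3cr1-NuTRAP positive fractions and 0.0896 to 0.168 CPM in the 3 Aldh1l1-NuTRAP positive fractions, where it was under the floor of 3 counts in each library, so no fold is given. Between Cx3cr1-NuTRAP positive fraction and input, 11 of 56 pathway genes passed as higher and 12 as lower, near the 23.3% and 25.6% of all tested genes. Folr2, 1 of the 11, had 0.354 to 0.745 CPM in the inputs. With 8 to 20 counts there, it entered the test only through the positive fractions, where it had 82 to 202, so its call is not read as a difference. Serinc3 rose by 1.03 (SE 0.11), while Serinc5 of the same family had -0.85 (SE 0.07) and Serinc1 -0.58 (SE 0.11), both called lower. Shmt2 rose by 0.43 (SE 0.12, edgeR adjusted p = 0.00744), with 24.7 to 40.9 CPM in the positive fractions and 22.2 to 25.9 CPM in the inputs. Slc6a9 had -0.50 (SE 0.07) and was called lower, and Slc7a10 had 0.02 (SE 0.07, edgeR adjusted p = 0.876). Microglia markers moved in the same direction as Serinc3, as given above, and were all detected.

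**Figure D4:**
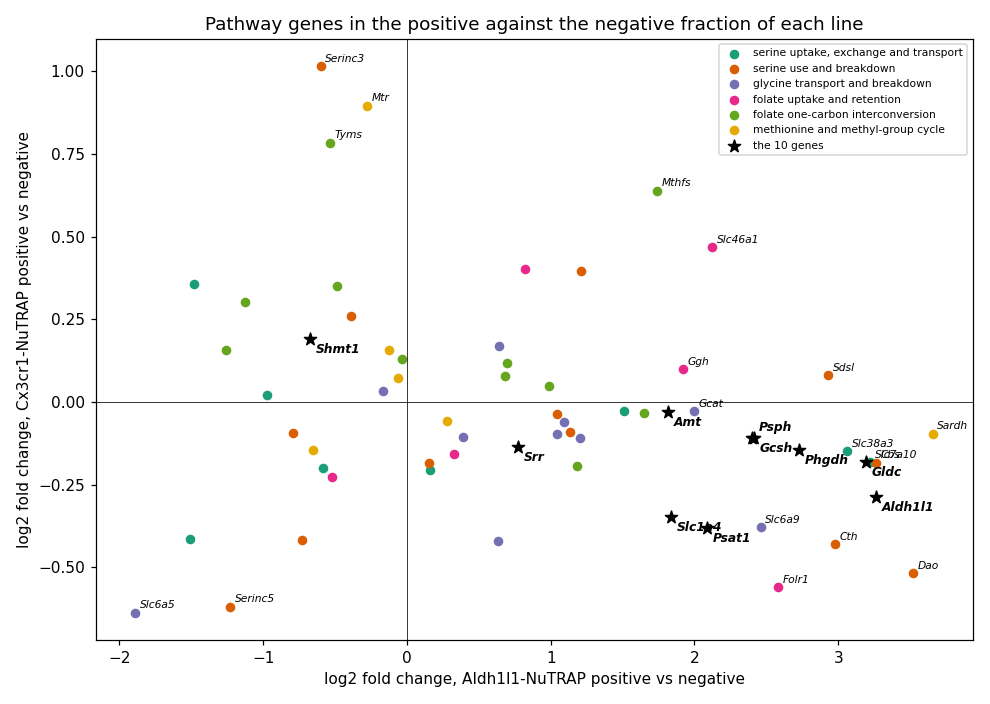
Log2 fold changes from edgeR of the positive over the negative fraction, with the Aldh1l1-NuTRAP line on the horizontal axis and the Cx3cr1-NuTRAP line on the vertical axis, 1 point per gene tested in both, with colours for roles and stars for the 10 genes. Of the 10 genes, 9 lie right of 0 on the horizontal axis and 1 above 0 on the vertical axis, that 1 being Shmt1, and Folr2 is absent because it was tested in 1 line only.

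The genes most like each of the 10 over the 29 libraries, among 14108 others, were found from Pearson's r of log2 CPM. These values describe libraries that share mice and differ mainly by fraction. Apart from Srr and Shmt1, each of the 10 genes was higher in the 3 Aldh1l1-NuTRAP positive fractions than in all other libraries. For these genes r largely reflects that gap, and it is not read as likeness among the other libraries. Phgdh was most like Prdx6, an antioxidant enzyme, followed by Gstm5 and Scp2 (r = 0.991, 0.989 and 0.987). Gcsh was most like Gstm5, a glutathione transferase, followed by Tst and Prkcdbp (r = 0.994, 0.991 and 0.99). The list of Psat1 held Gja1, the gap junction protein connexin 43, Ak3 and Timp3 (r = 0.992, 0.989 and 0.989), and that of Slc1a4 held Timp3, Tmem47 and Tmem229a (r = 0.99, 0.987 and 0.986). Aldh1l1 was most like Htra1, Cbs and Ntsr2 (r = 0.992 for each), and Gldc most like Slc9a3r1, Mtss1l and Fgfrl1 (r = 0.989, 0.98 and 0.979). Psph was nearest to Fxyd1, Hist1h2bc and Gstk1 (r = 0.975, 0.972 and 0.972), and Amt to Slc27a1, Fubp3 and Ptchd2 (r = 0.973, 0.958 and 0.955). Srr and Shmt1 had less similar neighbours, which were Abr, Rgl1 and Igfbp5 for Srr (r = 0.934, 0.931 and 0.928) and Sebox, Grb7 and Cyb5r4 for Shmt1 (r = 0.693, 0.675 and 0.665). Between the 10 genes, r was 0.98 for Phgdh and Gcsh, 0.88 for Phgdh and Psat1, 0.48 for Phgdh and Srr, and -0.44 for Phgdh and Shmt1.

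Promoter sequences are shown for 3 genes that were higher together in the Aldh1l1-NuTRAP positive fraction. They are the RefSeq windows of GRCm38.p6, the assembly of mm10, from 250 bases before to 50 after the start site, read on the gene's strand, which for all 3 is the minus strand. The windows are chr3:98339920-98340219 for Phgdh, chr19:30175392-30175691 for Gldc and chr11:20332664-20332963 for Slc1a4. Capitals mark CCAAT on either strand in Phgdh and Gldc, and TGATGNAA, the letters of an amino acid response element, on either strand in Slc1a4, whose CCAAT matches are left in lower case.
Phgdh: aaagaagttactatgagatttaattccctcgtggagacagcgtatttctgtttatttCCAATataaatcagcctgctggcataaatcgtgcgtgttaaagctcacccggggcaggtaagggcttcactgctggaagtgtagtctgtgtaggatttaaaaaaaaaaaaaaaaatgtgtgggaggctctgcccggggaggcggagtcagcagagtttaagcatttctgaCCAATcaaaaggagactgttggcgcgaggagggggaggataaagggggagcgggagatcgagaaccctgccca
Gldc: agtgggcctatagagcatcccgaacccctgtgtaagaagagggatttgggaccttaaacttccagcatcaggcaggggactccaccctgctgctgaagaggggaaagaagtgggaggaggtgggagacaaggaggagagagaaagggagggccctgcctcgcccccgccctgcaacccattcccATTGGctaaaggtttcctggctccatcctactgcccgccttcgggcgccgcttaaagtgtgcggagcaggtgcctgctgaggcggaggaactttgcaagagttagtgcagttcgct
Slc1a4: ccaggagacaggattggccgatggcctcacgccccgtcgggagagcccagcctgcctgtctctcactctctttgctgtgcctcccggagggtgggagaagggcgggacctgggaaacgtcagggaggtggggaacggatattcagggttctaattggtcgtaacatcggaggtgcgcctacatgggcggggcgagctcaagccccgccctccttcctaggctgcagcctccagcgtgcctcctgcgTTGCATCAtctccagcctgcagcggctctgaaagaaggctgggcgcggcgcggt
In all, 13 short motifs were searched on both strands in the windows of the 10 genes, of which Psat1 has 2, and in all 32851 windows. CCAAT was present in 9 of the 10 genes, Srr being the exception, and in 37.4% of all windows, and it was singled out after the counts were seen. The Slc1a4 match, which also fits TTGCATCA read on the gene's strand, begins 4 bases before the start site (position -4) and spans it, and TGATGNAA was present in 1 of the 10 genes and 3.97% of all windows. TATAAA was present in Phgdh alone among the 10 and in 13.6% of windows, and TGACNNNGC in Amt, Phgdh and Psph and in 12.4%. The NFI palindrome was present in Psat1 and Slc1a4 and in 5.84% of windows, and its longer form in 0 of the 10 and 0.0365%. TTGCATCA, a form of TGATGNAA on the other strand, was present in 0.895% of windows, and the longer ATTGCATCA in 0 of the 10 and 0.192%. The other motifs were present in 0 of the 10, with shares of all windows of 5.2% for TGACTCA, 7.15% for CACGTG, 14.1% for TTGGCA, 5.6% for CTTGGCA, which contains the former, and 9% for TTTCCTC. The windows of the 10 genes held 47.7% GC for Phgdh and 54.7% to 75.3% GC for the others, beside a median of 52.7% over all windows.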

How the data were processed

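RNAseq was made on TRAP fractions and whole tissue of brain from 3 Aldh1l1-NuTRAP and 6 Cx3cr1-NuTRAP mice, with polyA strand-specific libraries. Reads were trimmed and aligned by strand to mm10 by the authors with Strand NGS, which assigned them to genes of RefSeq. The deposited raw values are expected counts per gene without normalization, and 82.4% of the nonzero values were not whole (tolerance 1e-06). They were rounded to the nearest whole number. The deposited normalized columns, made by the authors with the DESeq algorithm, were not used.

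CPM is the count scaled to the library total. Tested genes had over 20 counts in each library of 1 group or more. They were tested with edgeR 4.0.16 (R 4.3.3; TMM factors, robust quasi-likelihood test, two-sided, Benjamini-Hochberg adjustment over all tested genes, threshold 0.05). SE is the absolute log2 fold change over the square root of F. Only the groups compared entered a fit, without the mouse as a block. Fractions with the same animal number came from the same mouse. Residuals of such libraries correlated across genes at 0.484 to 0.692 in the 3 Aldh1l1-NuTRAP mice. In the Cx3cr1-NuTRAP mice the correlation was above 0.1 in 5 of 6 mice for negative fraction with input, in 3 of 6 for positive fraction with input and for positive with negative fraction, and in 0 of 5 for input with whole tissue. DESeq2 1.42.0, other scalings and filters, the mouse block, all 6 groups in 1 fit and the omission of each mouse were alternatives. Ratios within a mouse and likeness used edgeR's log2 CPM with a prior count of 2. No pair of libraries of a group agreed within sampling noise (lowest chi-square per degree of freedom 4.06 over 61 pairs). The scripts were tested on simulated data. Python 3.11.15, pandas 2.3.3 and matplotlib 3.10.9 were used.

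Lengths are merged exons of GENCODE vM21, with all 64 pathway genes matched. Named by rule were the 10 genes, 6 fixed pathway genes, up to 6 pathway genes per direction and comparison with the largest called change and non-overlapping CPM, and the genes with the highest r. Folr1 was named after its values were seen. Not every gene that the rule names is reported here. The genes, the lists and the motifs were chosen with earlier results of these data known. Phgdh-ps1, a pseudogene of Phgdh, had 0 counts in every library.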

Additional observations from a re-analysis of the deposited data

Results flagged for a closer look

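Among 40 sets of values, 1 for each gene in each Cx3cr1-NuTRAP group, 6 held a library that stood far from the others by Dixon's criterion, which marks about 1 in 20 sets by chance. In the negative fractions, mouse 155 had 125 CPM of Phgdh, 85.3 CPM of Gcsh and 34.5 CPM of Srr, the first pair above and the last below the other 5 mice. The same library had the high share of counts in short-transcript genes (14.0%), and the part of this in the values was not tested. Mouse 194 had 2.49 CPM of Shmt1 in the negative fraction. In whole tissue, mouse 277 had 2.00 CPM of Shmt1 and mouse 210, the library with the lowest total, had 36.1 CPM of Gldc.

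The ratio of positive to negative fraction differed between the lines, by the interaction test, for 9 genes. The differences, Aldh1l1-NuTRAP minus Cx3cr1-NuTRAP on the log2 scale, were 3.51 for Aldh1l1, 3.33 for Gldc, 2.84 for Phgdh, 2.48 for Gcsh, 2.47 for Psph, 2.42 for Psat1, 2.14 for Slc1a4, 1.80 for Amt and 0.86 for Srr.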

How the results depend on the processing

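Of 1061 refitted fold changes of the 10 genes, 1008 kept their direction and their side of the threshold, 18 lost the call, 20 gained it and 15 changed sign, none of the latter with a call in either fit. Over all genes, the count of called genes in the Aldh1l1-NuTRAP positive against negative fraction was 3587 to 9731 with each mouse left out (3662 without mouse 293 and 3587 without mouse 294), and 8 to 9 of the 10 genes were called.

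In the Cx3cr1-NuTRAP positive against negative fraction the range was 1747 to 4273 genes and 0 to 4 of the 10. Between the negative fractions it was 0 to 133 genes and 0 to 1 of the 10, and DESeq2 called 517 genes and the fit without a filter 14. In the Cx3cr1-NuTRAP negative fraction against input it was 0 to 3815 genes and 0 to 3 of the 10. There DESeq2 called 2050 genes (2 of the 10), the fit without a filter 281, all 6 groups in 1 fit 60, and the mouse block 5115 (3 of the 10). Between input and whole tissue the range was 2574 to 5395 genes and 2 to 4 of the 10, with 2481 genes and 2 of the 10 when all 6 groups were in 1 fit. The mouse block (paired by animal) changed no other call of the 10 genes than those of Srr, Phgdh, Gcsh and Psat1 given in the report. The causes were not tested.

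Changes of sign concerned values near 0. With a filter of at least 100 counts, Amt in the Cx3cr1-NuTRAP positive against negative fraction was 0.011. With each mouse left out, ranges were in the Cx3cr1-NuTRAP positive fraction against input -0.010 to 0.167 for Phgdh and -0.014 to 0.144 for Psph, in the Cx3cr1-NuTRAP positive against negative fraction -0.232 to 0.050 for Amt and -0.172 to 0.035 for Gcsh, in the negative fractions of the lines -0.117 to 0.251 for Srr and -0.051 to 0.380 for Shmt1, in the Cx3cr1-NuTRAP negative fraction against input -0.193 to 0.130 for Shmt1.

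Depth limits Shmt1 the most, with 4 to 38 counts in the Aldh1l1-NuTRAP positive fractions. The tests with 3 Aldh1l1-NuTRAP mice rest on few animals, and mouse 290 had the lowest totals of both fractions.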

Other observations

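Among the 6 Cx3cr1-NuTRAP positive fractions, the libraries with low Phgdh and Gcsh had high Amt. Mice 155 and 194 had 71.2 and 66.3 CPM of Phgdh, 48.1 and 42.5 CPM of Gcsh, and 27.3 and 24.5 CPM of Amt. Mice 209, 210 and 277 had 103, 112 and 98.6 CPM of Phgdh, 65.1, 72.7 and 64.1 CPM of Gcsh, and 13.7, 14.0 and 15.1 CPM of Amt, and mouse 192 lay between them with 93.6, 61.8 and 19.4 CPM. The share of counts in short-transcript genes was 9.28% and 10.0% in mice 155 and 194, 12.0% in mouse 192 and 11.2% to 12.8% in the other three. Summed cell type markers also differed between these libraries. The summed astrocyte markers were 4000, 3937 and 3299 CPM in mice 155, 192 and 194, and 4891, 5038 and 4872 CPM in mice 209, 210 and 277, and the summed neuron markers were 7416, 8244 and 6769 CPM against 10515, 10034 and 9554 CPM in the same order. Endothelial markers were 103, 127 and 128 CPM against 207, 213 and 198 CPM, and choroid plexus markers 521, 857 and 228 CPM against 1044, 1057 and 926 CPM. Microglia markers were higher in mice 155, 192 and 194 for the most part, at 4528, 5225 and 7994 CPM against 3338, 4003 and 4611 CPM. The part of these in the values was not tested.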
